A study of Mus musculus with 6 samples.

Results

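Eukaryotic translation initiation factors are the proteins that place the ribosome at the start codon of an mRNA. The genes described here are those whose symbol in the deposited table begins with Eif and a digit from 1 to 6, leaving out the eIF2 kinases (Eif2ak genes). The rule used names only and no measured value, and it found 53 symbols among 23203 loci. Of these, 48 were counted as initiation factors or as the 4E-binding proteins that hold back the cap-binding factor. This count goes by name, which alone does not show a role in initiation. It takes in Eif4enif1, for a transporter of the cap-binding factor, and Eif4a3, for an RNA helicase. Another 4, Eif2c1 to Eif2c4, are older names of the Argonaute genes Ago1 to Ago4 of small RNA silencing, and Eif1ad encodes a protein that shares a domain with eIF1A. Of the 53, 51 reached a mean of 1 FPKM (sequenced fragments scaled by transcript length and by library size) over all libraries and were tested. The exceptions were Eif4e1b, a cap-binding protein gene listed at 0 in all 6 libraries, and Eif2c4 (Ago4), which lay between 0 and 0.154 FPKM.

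The libraries came from mouse naive CD4 T cells stimulated for 48 h through CD3e (coated antibody, 10 µg/ml) and CD28 (1 µg/ml) in the presence of 10 ng/ml IL-23, 2.5 ng/ml TGFb1 and 20 ng/ml IL-6, which drives them towards Th17 cells, the helper T cells that make IL-17. In 3 libraries the cells had vehicle (DMSO), and in the other 3 they had 250 µM 2DG (2-deoxyglucose, a glucose analogue that blocks glycolysis). Strain, age and sex were not given, and the titles carry the numbers 17, 42 and 43 in both groups without saying what they mark. Whether the replicates of a group represent different animals or wells is not stated, so p-values reflect only library-to-library spread, part or all of which may be technical.

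The upper quartiles of the libraries lay between 10.9 and 11.6 FPKM, while their sums differed more, from 1469420 FPKM (vehicle replicate 1) and 1471759 FPKM (2DG replicate 1) to 1958739 FPKM (vehicle replicate 2). Read counts were not used here, so sequencing depth is unknown. All 7 T cell markers were present, summing to 1190 to 1381 FPKM per vehicle library and 914.1 to 1066 FPKM per 2DG library; 1 of the 7, Cd2, fell with 2DG. All 5 Th17 markers were present, summing to 1717 to 1996 FPKM per vehicle library and 2350 to 3069 FPKM per 2DG library; 2 of the 5 passed the test described below as higher with 2DG. The CD8 T cell genes Cd8a and Cd8b1 summed to 2.68 to 3.31 FPKM per vehicle library and 2.91 to 5.51 FPKM per 2DG library. Markers of B cells summed to at most 1.47 FPKM in any library, those of myeloid cells to at most 2.67 FPKM, those of NK cells to at most 0.0755 FPKM and those of erythroid cells to at most 0.256 FPKM. Globin genes and the NK gene Klrb1c were at 0 throughout. The part that a different share of polarized cells plays in the values below was not tested, and in bulk RNA fewer cells of a type and less RNA per cell cannot be told apart.

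In the canonical pathway eIF2, a complex of α, β and γ subunits, carries the initiator tRNA to the small ribosomal subunit as a GTP-bound complex. eIF1, eIF1A and eIF3 hold that subunit in a scanning-competent state. eIF4F, made of the cap-binding eIF4E, the helicase eIF4A and the scaffold eIF4G, brings the mRNA. eIF5 triggers GTP hydrolysis at the start codon, eIF5B joins the large subunit, and eIF2B recharges eIF2 with GTP. The main controls act on proteins rather than on mRNA levels: stress kinases phosphorylate eIF2α, which blocks eIF2B, and mTORC1 phosphorylates the 4E-binding proteins, which then release eIF4E. Activated T cells make large amounts of protein, and lack of glucose can act on both controls. Neither phosphorylation nor translation was measured, so what follows concerns transcript levels.

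Promoter sequence was read from RefSeq (GRCm38.p6, the assembly that the submitters' mm10 denotes) for the 37 of 48 initiation factor and 4E-binding protein genes with an entry. The 250 bases before each annotated start were searched for the E-box CACGTG, a palindrome bound by Myc and related factors, in any window of a gene. It was found in 9 of 37 genes (24.3%), against 10.7% of 7368 tested genes with a window and 6.86% of 27025 genes. The ETS core CCGGAAG, searched on both strands, was found in 11 of the 37 (29.7%), against 17.9% and 7.83%. TGATGNAA, the core of the element bound by C/EBP-ATF dimers such as those of ATF4, searched on both strands, was found in 1 of the 37, Eif2s3x (2.7%), against 2.35% and 3.91%. A match is a description of letters and not of a bound site. The genes with the E-box span several steps of initiation, including a gene for each of the 3 subunits of eIF4F, and the stretches around it are shown for that reason. Each is 30 bases long, in the direction of the gene, with the E-box in capitals. Those of Eif1b, Eif4e, Eif4h and the first of Eif5a overlap an exon of GENCODE M21. The stretches of Eif4e, Eif5a and Eif5a2 lie before a later annotated start, within the span of the gene.
Eif1b, chr9:120492570-120492599, plus strand: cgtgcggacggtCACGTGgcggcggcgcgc
Eif3f, chr7:108934335-108934364, plus strand: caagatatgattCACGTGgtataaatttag
Eif3k, chr7:28981915-28981944, minus strand: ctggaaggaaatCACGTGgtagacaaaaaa
Eif4a1, chr11:69672595-69672624, minus strand: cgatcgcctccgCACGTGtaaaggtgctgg
Eif4e, chr3:138527028-138527057, plus strand: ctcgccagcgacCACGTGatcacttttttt
Eif4e, chr3:138527192-138527221, plus strand: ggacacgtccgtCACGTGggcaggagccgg
Eif4g1, chr16:20672661-20672690, plus strand: ggcagtgggtgtCACGTGatggggcggagc
Eif4h, chr5:134639488-134639517, minus strand: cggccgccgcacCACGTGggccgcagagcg
Eif5a, chr11:69920791-69920820, minus strand: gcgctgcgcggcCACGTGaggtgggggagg
Eif5a, chr11:69921443-69921472, minus strand: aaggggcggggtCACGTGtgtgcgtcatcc
Eif5a2, chr3:28781123-28781152, plus strand: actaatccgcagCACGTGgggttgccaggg
Eif5a2, chr3:28781148-28781177, plus strand: cagggcgagcttCACGTGacggggcgggac

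Eif2b2, the member with the smallest p between vehicle and 2DG, had none of the motifs in its window. Its 250 bases are shown as an example of a window without them. Whether the motifs go with the differences between the groups was not tested.
Eif2b2, chr12:85219231-85219480, plus strand: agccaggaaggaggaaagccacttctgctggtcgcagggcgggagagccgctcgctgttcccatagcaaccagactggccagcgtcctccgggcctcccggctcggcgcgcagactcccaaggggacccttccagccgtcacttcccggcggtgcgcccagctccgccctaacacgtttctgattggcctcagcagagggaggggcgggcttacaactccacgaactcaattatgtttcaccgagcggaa

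No gene of the initiation machinery was called as higher or lower in Th17 cells with 2DG, and for most of them the 95% interval of the difference stayed within 1.5-fold. None of the 51 tested genes passed the test in either direction (limma on log2(FPKM + 1), Benjamini-Hochberg adjusted p under 0.05 over 10228 loci; lowest adjusted p = 0.11). Over all tested loci, 156 passed as higher with 2DG (1.53%) and 122 as lower (1.19%). Without adjustment, 5 of the 51 genes were at p under 0.05 as higher with 2DG (Eif2s3y, Eif4b, Eif3f, Eif5 and Eif4ebp1) and 3 as lower (Eif2b2, Eif2b4 and Eif5a2). Together these are 15.7% of the 51, against 9.07% of all loci as higher and 8.82% as lower, 17.9% in all, so the members' share was near the background. These 5 and 3 were 0 and 0 after scaling to an equal sum of FPKM. Leaving out 1 library took the 5 to 2 (vehicle replicate 1, vehicle replicate 3 or 2DG replicate 1), to 3 (vehicle replicate 2 or 2DG replicate 2) or to 1 (2DG replicate 3), and the 3 to 1 without vehicle replicate 3 or 2DG replicate 3. The 3 libraries of each group did not overlap for 9 genes that were higher with 2DG and 4 that were lower, 25.5% of the 51, against 11.9% and 11.8% of all loci, 23.7% in all. Among the 47 initiation factors and 4E-binding proteins alone, 6 were higher and 4 lower in this way, 21.3%, so this share too was near the background.

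The data also bound the differences. The 95% interval of the difference lay within 1.5-fold in both directions for 48 of 51 genes (94.1%), against 74.2% of all tested loci and 83.0% of those with a mean log2 level of at least 5, which is nearer to the level of these genes (median 6.14). With an equal sum of FPKM, 37 of the 51 did so. The 3 genes with a wider interval were Eif4ebp1, Eif2s3y and Eif3e. The median within-group SD of the 51 genes was 0.11 on the log2 scale, against 0.14 over all loci. It was 0.12 over loci with a mean log2 level of at least 5. The log2 fold changes of the 47 tested initiation factors and 4E-binding proteins ran from -0.32 to 0.35 with a median of 0.01, against a median of -0.01 over all loci. A gene that misses the threshold is not shown to be equal in both groups, and only its interval limits the difference. For 1 gene, an exact permutation test with 3 libraries a group has a smallest possible p of 0.1, so the calls rest on the spread that limma shares across loci.

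**Figure D1:**
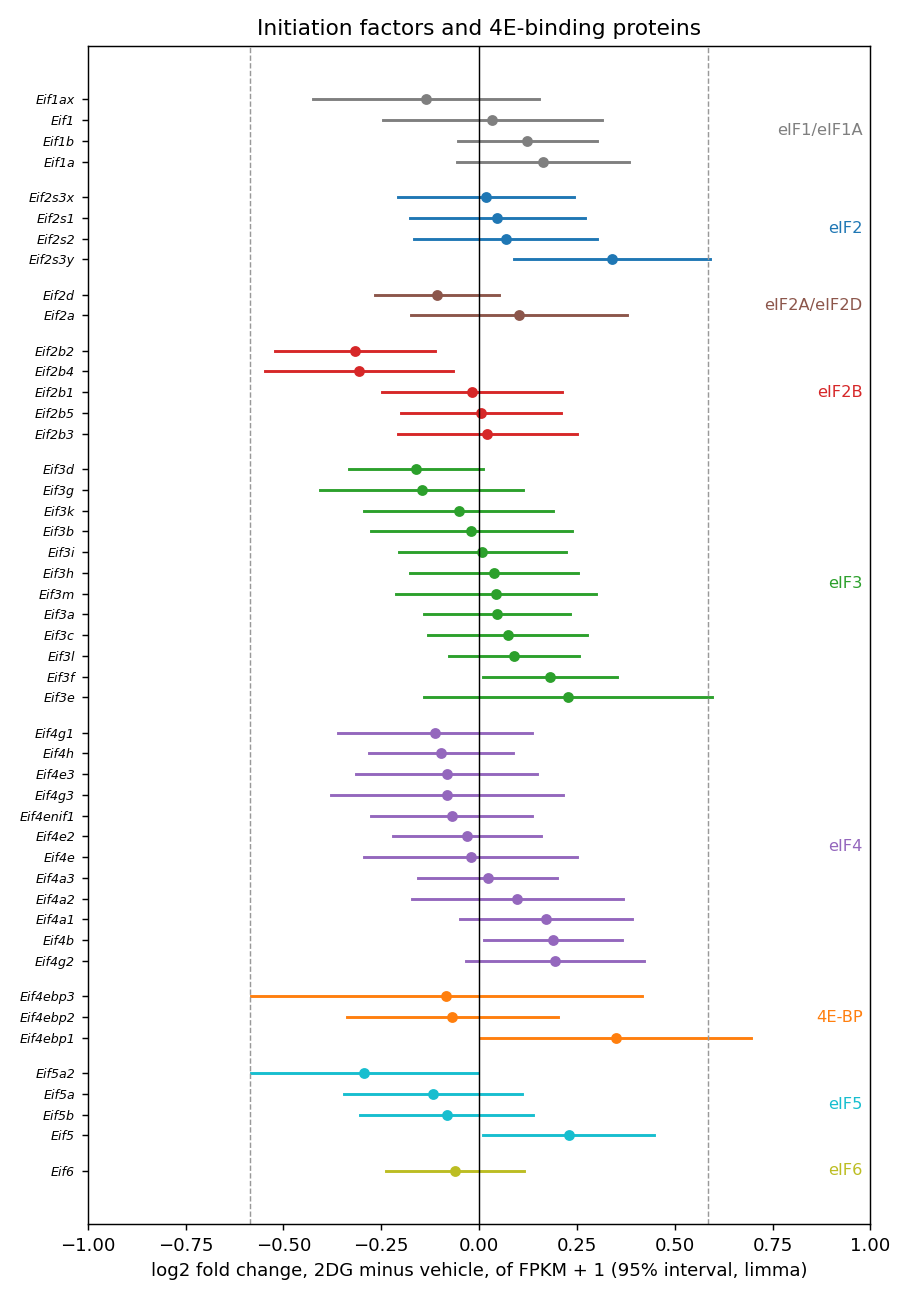
Log2 fold change (2DG minus vehicle, on the log2(FPKM + 1) scale) of the 47 tested initiation factor and 4E-binding protein genes with its 95% interval from limma, grouped by complex; dashed lines mark 1.5-fold in each direction. Points range from -0.32 for Eif2b2 to 0.35 for Eif4ebp1, and none passed the adjusted threshold.

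FPKM is scaled by transcript length, so levels can be set beside each other. Eif5a, for the hypusine-bearing factor that helps the ribosome over difficult peptide bonds, had the highest level, with a mean of 660.2 FPKM over the 6 libraries. The 12 eIF3 subunits measured lay between 93.2 FPKM (Eif3m) and 288 FPKM (Eif3i) in mean level, and the 5 eIF2B subunits between 32.7 FPKM (Eif2b3) and 69.8 FPKM (Eif2b5). The eIF4 group was spread more widely, from 0 FPKM for Eif4e1b and, among its 12 tested genes, from 13.6 FPKM for the scaffold gene Eif4g3 to 283 FPKM for the helicase cofactor gene Eif4h. Eif1 (12.1 FPKM) and Eif2s3x (13.4 FPKM) were low, and Eif5b (5.70 FPKM) was lower still. RefSeq names 10 pseudogenes after members, of which 3 carry the name of Eif1, 4 an older name of Eif3e and 1 that of Eif2s3x. Of the rest, 1 is named after eIF4A and 1 as eIF5A-like, without saying which gene they copy. Reads that such copies share with a parent gene could be split between them, so the levels of Eif1, Eif3e, Eif2s3x and the eIF4A and eIF5A genes are uncertain. No locus named Eif3j was among those used.

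**Figure D2:**
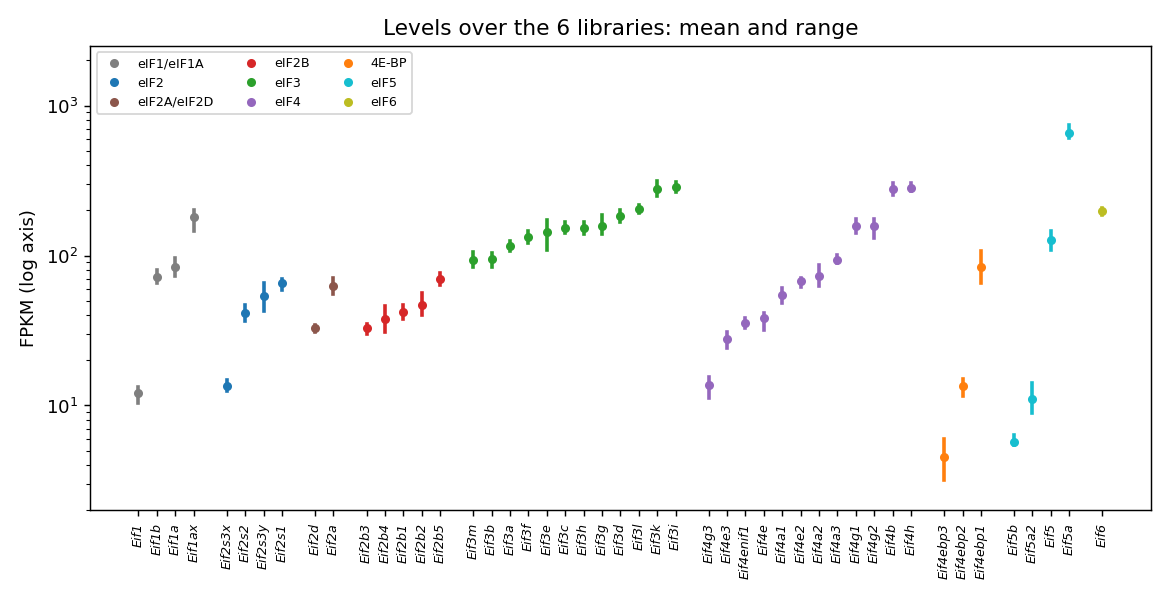
Mean FPKM over the 6 libraries for the 47 tested initiation factor and 4E-binding protein genes (log axis; Eif4e1b, at 0, is not drawn), coloured by complex, with bars from the lowest to the highest library. Eif5a stands at the top with 660.2 FPKM, and Eif4ebp3 is the lowest of those drawn with 4.54 FPKM.

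eIF2, the carrier of the initiator tRNA, had 4 genes, of which none passed the test. The median log2 fold change of the 4 was 0.06. Eif2s1 encodes eIF2α, the subunit with the serine that the stress kinases phosphorylate (chromosome 12, 78862072 to 78887010). It was at 68.4, 58.6 and 65.4 FPKM in vehicle replicates 1 to 3 and at 70.0, 60.1 and 68.8 FPKM in 2DG replicates 1 to 3. The groups overlapped nearly in full, and the log2 fold change was 0.05 ± 0.09 (SE, adjusted p = 0.84), with a 95% interval from -0.18 to 0.27. Eif2s2, for the β subunit, was at 42.3, 36.7 and 41.1 FPKM in the vehicle libraries and 39.4, 39.8 and 47.1 FPKM in the 2DG libraries. The groups again overlapped (log2 fold change 0.07, adjusted p = 0.77).

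The γ subunit has a gene on each sex chromosome in mice, and the 2 genes are described in turn. Eif2s3x (chromosome X, 94188709 to 94212651) was at 12.9, 14.5 and 12.6 FPKM in the vehicle libraries and at 12.8, 14.7 and 12.9 FPKM in the 2DG libraries. Library by library the values were almost the same in both groups, at a log2 fold change of 0.02 ± 0.10 (SE from limma, adjusted p = 0.95). Eif2s3y (chromosome Y, 1010562 to 1049134) was at 52.8, 42.7 and 45.9 FPKM in the vehicle libraries and at 66.1, 57.6 and 55.8 FPKM in the 2DG libraries. All 3 2DG libraries lay above all 3 vehicle libraries, but the log2 fold change of 0.34 ± 0.11 (SE) did not pass (adjusted p = 0.16). The interval of the fold, 1.06 to 1.51, just reached past 1.5. The sum of both γ genes was 60.5 ± 4.59 FPKM (SD, n = 3) in the vehicle libraries and 73.3 ± 5.18 FPKM (SD, n = 3) in the 2DG libraries. The difference between the 2 genes' responses was not tested.

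Levels of other genes of the Y chromosome are given beside that of Eif2s3y, and they were chosen after its values were seen. Ddx3y, for an RNA helicase that also helps initiation, was at 17.3, 17.6 and 20.6 FPKM in the vehicle libraries and 29.5, 23.1 and 23.1 FPKM in the 2DG libraries (log2 fold change 0.42, adjusted p = 0.13). Uty, for a histone demethylase family member, differed by 0.35 (adjusted p = 0.18) and Kdm5d, for another histone demethylase, by 0.18 (adjusted p = 0.53) on the log2 scale. All 4 Y-linked genes had higher means with 2DG and none passed the test. Xist was listed at 0 in all 6 libraries. The part that the makeup of the cultures by animal plays in these values was not tested.

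eIF2B, the exchange factor that recharges eIF2 and is held by phosphorylated eIF2α, had 5 genes, of which none passed the test. Its median log2 fold change was -0.02, with log2 fold changes from -0.32 to 0.02. Eif2b2, for the β subunit (chromosome 12, 85219481 to 85226628), was at 47.1, 56.6 and 52.2 FPKM in the vehicle libraries and at 40.0, 42.2 and 42.0 FPKM in the 2DG libraries. All 2DG libraries were below all vehicle libraries, and the difference of -0.32 ± 0.09 (SE, log2 scale) had the smallest p of the 51 genes (adjusted p = 0.11). This is a fold of 0.803 with a 95% interval from 0.697 to 0.924.

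Eif2b4, for the δ subunit (chromosome 5, 31187558 to 31193139), was at 37.1, 46.2 and 41.9 FPKM in the vehicle libraries and at 33.7, 35.7 and 31.0 FPKM in the 2DG libraries. Its groups did not overlap either, at a log2 fold change of -0.31 ± 0.10 (SE from limma, adjusted p = 0.18). The β and δ subunits are, with α, the regulatory core of eIF2B that senses phosphorylated eIF2α. The α gene Eif2b1 had overlapping groups, at 38.0, 46.9 and 43.0 FPKM in the vehicle libraries and 41.1, 39.8 and 45.0 FPKM in the 2DG libraries (log2 fold change -0.02, adjusted p = 0.95). The catalytic ε subunit gene Eif2b5 was at 64.0, 76.0 and 69.1 FPKM in the vehicle libraries and 70.4, 66.4 and 72.7 FPKM in the 2DG libraries (log2 fold change 0.01 ± 0.09 SE, adjusted p = 0.99). Its partner in the catalytic pair, the γ gene Eif2b3, had a log2 fold change of 0.02 (adjusted p = 0.94). The groups of Eif2b3 and Eif2b5 overlapped as well, and differences between subunits were not tested.

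**Figure D3:**
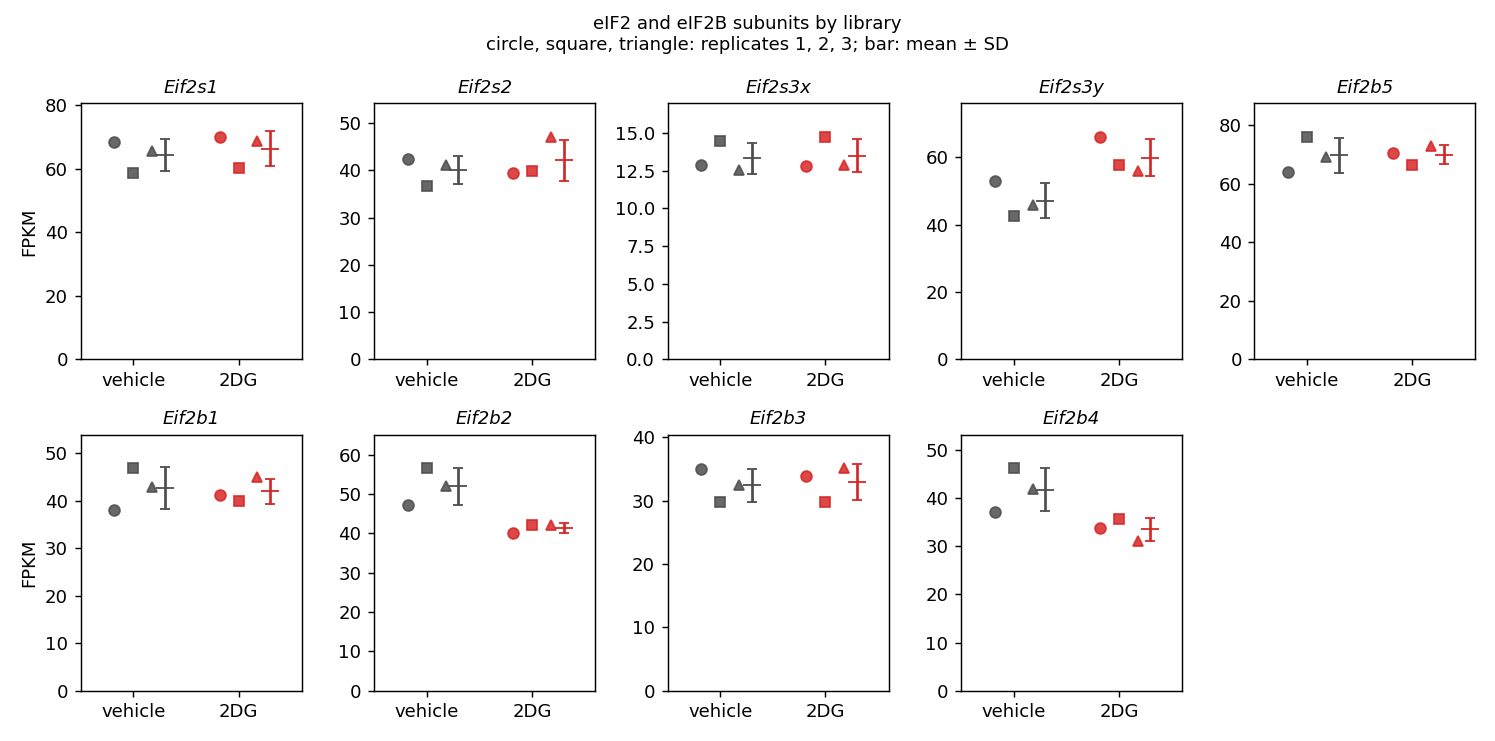
FPKM of the 4 eIF2 and 5 eIF2B genes in each library (symbols: replicates 1 to 3; bars: mean ± SD, n = 3), each panel with its own axis from 0. Eif2b2 and Eif2b4 have all 2DG libraries below the vehicle libraries and Eif2s3y has them above, while the other 6 panels overlap.

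The tRNA-delivering factors that work outside eIF2, Eif2a and Eif2d, were also within small bounds. Eif2d was at 34.5, 34.0 and 34.3 FPKM in the vehicle libraries and at 31.2, 31.1 and 33.0 FPKM in the 2DG libraries. The groups did not overlap, but the difference was only -0.11 ± 0.07 (SE, log2 scale, adjusted p = 0.47). Eif2a had a log2 fold change of 0.10 (adjusted p = 0.71).

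The start codon selection factors eIF1 and eIF1A had 4 genes, of which none passed, with a median log2 fold change of 0.08. Eif1 was at 10.3, 12.4 and 13.0 FPKM in the vehicle libraries and 13.4, 10.8 and 12.5 FPKM in the 2DG libraries, fully overlapping (log2 fold change 0.03, adjusted p = 0.92). Eif1a, with the smallest p of this group, was at 79.8, 72.5 and 83.5 FPKM in the vehicle libraries and 86.9, 81.3 and 96.4 FPKM in the 2DG libraries (log2 fold change 0.16, adjusted p = 0.43). Its X-linked counterpart Eif1ax, which encodes a nearly identical protein, had a difference of the other sign (-0.13, adjusted p = 0.62). Only Eif1b had groups that did not overlap, with the 2DG libraries higher (log2 fold change 0.12, adjusted p = 0.46).

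eIF3, the largest of the complexes and the platform on the small subunit, had 12 genes tested, of which none passed. Of the 12, 8 had a log2 fold change above 0 and 4 below, with a median of 0.04. Over all tested loci, 4899 were above 0 and 5329 below. Eif3a, for the scaffold subunit, was at 117, 108 and 119 FPKM in the vehicle libraries and 113, 126 and 116 FPKM in the 2DG libraries (log2 fold change 0.05 ± 0.08 SE, adjusted p = 0.81). The groups overlapped. Eif3f had the smallest p of the complex (chromosome 7, 108934415 to 108941942), at 129, 126 and 121 FPKM in the vehicle libraries and 136, 147 and 144 FPKM in the 2DG libraries. Its groups did not overlap, at a log2 fold change of 0.18 ± 0.07 (SE from limma, adjusted p = 0.25).

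Another pair of eIF3 genes had groups that did not overlap, in opposite directions. With Eif3f these were 25% of the 12 eIF3 genes, near the 23.7% of all tested loci. Eif3d, whose protein can itself bind the cap of some mRNAs, had the lower 2DG values (-0.16, adjusted p = 0.30), and Eif3l the higher ones (0.09, adjusted p = 0.56). Eif3e had the widest spread within groups, at 149, 108 and 136 FPKM in the vehicle libraries and 163, 127 and 172 FPKM in the 2DG libraries (log2 fold change 0.23, adjusted p = 0.51). The intervals of the other 11 eIF3 genes stayed within 1.5-fold.

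The eIF4 group had 13 genes, 12 of them tested, and none passed. The median log2 fold change of the 12 was -0.03, with 5 above 0 and 7 below, and the 95% interval stayed within 1.5-fold for all 12. Eif4e, for the cap-binding protein that limits eIF4F (chromosome 3, 138526191 to 138559696), was at 40.0, 36.7 and 38.5 FPKM in the vehicle libraries and 41.0, 31.7 and 41.5 FPKM in the 2DG libraries. The 2DG libraries lay on both sides of the vehicle range, for a log2 fold change of -0.02 ± 0.12 (SE from limma, adjusted p = 0.95). Eif4a1, for an eIF4A helicase, was at 48.3, 47.9 and 57.0 FPKM in the vehicle libraries and 56.4, 55.0 and 61.1 FPKM in the 2DG libraries (log2 fold change 0.17, adjusted p = 0.40). Eif4a2, for another eIF4A helicase, had the higher mean over the 6 libraries, 73.0 FPKM against 54.3 FPKM. Its log2 fold change was 0.10 (adjusted p = 0.71). Eif4g1, for the main scaffold, was at 141, 177 and 172 FPKM in the vehicle libraries and 147, 160 and 145 FPKM in the 2DG libraries (log2 fold change -0.11, adjusted p = 0.64). The groups overlapped for each of Eif4e, Eif4a1 and Eif4g1, which encode subunits of eIF4F.

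Eif4b, for the cofactor that stimulates the helicase (chromosome 15, 102073773 to 102097173), had the smallest p of the eIF4 group. It was at 254, 267 and 256 FPKM in the vehicle libraries and 283, 300.4 and 303 FPKM in the 2DG libraries. The 2DG libraries all lay higher, by 0.19 ± 0.07 (SE, log2 scale, adjusted p = 0.25), a fold of 1.14. The related cofactor gene Eif4h had a difference of the other sign (-0.10, adjusted p = 0.57). Eif4g2, for a scaffold that lacks the eIF4E site and serves cap-independent initiation, had a log2 fold change of 0.19 (adjusted p = 0.36).

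The 4E-binding proteins compete with eIF4G for eIF4E until mTORC1 phosphorylates them. None of the 3 genes passed the test. Eif4ebp1 (chromosome 8, 27260327 to 27275656) was at 73.9, 81.8 and 65.9 FPKM in the vehicle libraries and 76.3, 108 and 101 FPKM in the 2DG libraries. 2DG replicates 2 and 3 lay above all vehicle libraries and 2DG replicate 1 lay within them, so the groups overlapped. The log2 fold change of 0.35 ± 0.15 (SE from limma, adjusted p = 0.27) was the highest of the 51 genes, with an interval of the fold from 1.00 to 1.62. It was 0.50 without 2DG replicate 1 and 0.25 without 2DG replicate 2.

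Eif4ebp2 was at 12.5, 14.6 and 14.3 FPKM in the vehicle libraries and 11.5, 14.9 and 13.0 FPKM in the 2DG libraries (log2 fold change -0.07, adjusted p = 0.80). Eif4ebp3 was at 3.43, 5.97 and 4.74 FPKM in the vehicle libraries and 5.15, 4.80 and 3.17 FPKM in the 2DG libraries (log2 fold change -0.08, adjusted p = 0.88). Eif4ebp1 was therefore the main 4E-binding protein transcript in every library. Its ratio to Eif4ebp2 was 5.91, 5.60 and 4.62 with vehicle and 6.62, 7.23 and 7.77 with 2DG. Its ratio to Eif4e was 1.85, 2.23 and 1.71 with vehicle and 1.86, 3.41 and 2.44 with 2DG. The first ratio did not overlap between groups and the second did; both were chosen with the values known and were not tested.

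eIF5 and its namesakes had 4 genes, of which none passed, and their median difference was -0.10 on the log2 scale. Eif5, for the GTPase activator (chromosome 12, 111538101 to 111546753), was at 121, 109 and 123 FPKM in the vehicle libraries and 143, 125 and 147 FPKM in the 2DG libraries. The groups did not overlap, at a log2 fold change of 0.23 ± 0.09 (SE from limma, adjusted p = 0.26). Eif5a was at 740.3, 645 and 676 FPKM in the vehicle libraries and 616, 610.1 and 674 FPKM in the 2DG libraries (log2 fold change -0.12 ± 0.10 SE, adjusted p = 0.58). Its groups overlapped.

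Eif5a2, the minor isoform gene of eIF5A, was at 12.5, 10.5 and 14.1 FPKM in the vehicle libraries and 10.6, 10.0 and 8.95 FPKM in the 2DG libraries, which differed by -0.29 ± 0.12 (SE, log2 scale, adjusted p = 0.27). Vehicle replicate 2 lay within the 2DG range, so the groups overlapped. Eif5b, for the subunit-joining GTPase, had a log2 fold change of -0.08 (adjusted p = 0.71). Eif6, which keeps the large subunit from joining early, was at 207, 202 and 195 FPKM in the vehicle libraries and 185, 190.0 and 203 FPKM in the 2DG libraries (log2 fold change -0.06, adjusted p = 0.72). That difference was 0.0073 after quantile normalization.

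**Figure D4:**
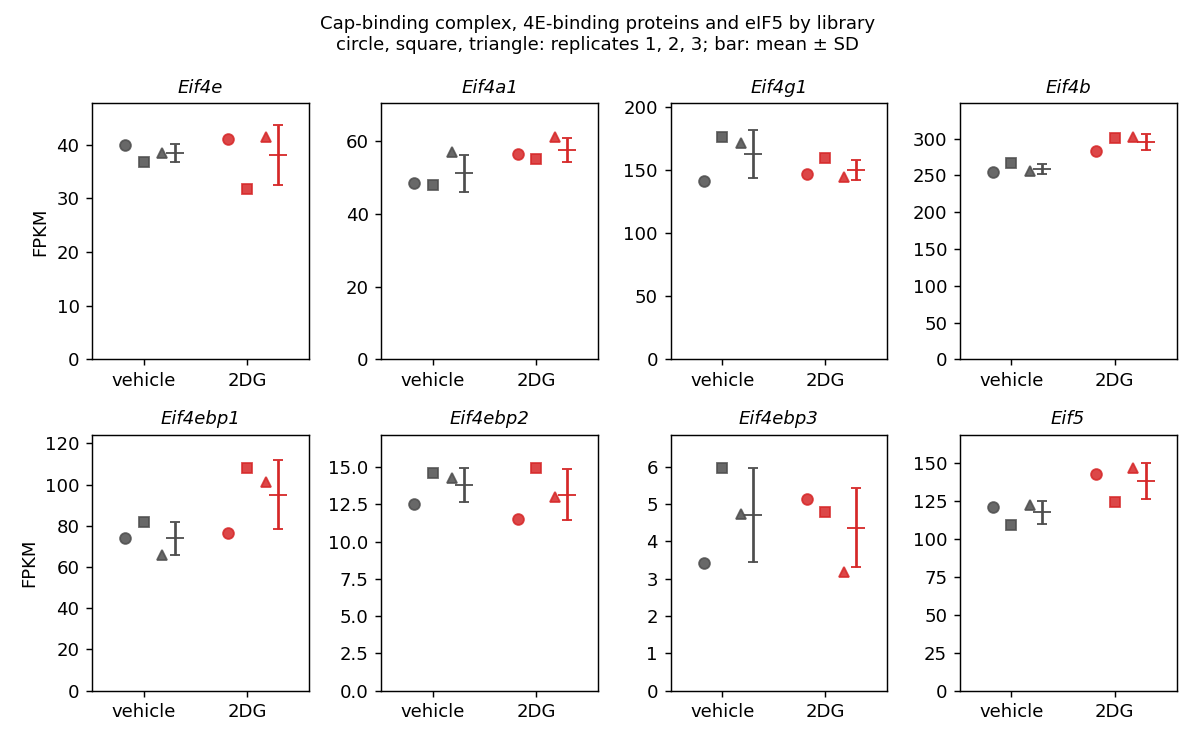
FPKM of Eif4e, Eif4a1, Eif4g1, Eif4b, the 3 4E-binding protein genes and Eif5 in each library (symbols: replicates 1 to 3; bars: mean ± SD, n = 3), each panel with its own axis from 0. The groups are apart for Eif4b and Eif5, and Eif4ebp1 has 1 of 3 2DG libraries, at 76.3 FPKM, within the vehicle range.

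The symbols not counted as initiation factors were also free of calls. Eif1ad was at 50.6, 51.6 and 51.5 FPKM in the vehicle libraries and 54.4, 59.1 and 56.7 FPKM in the 2DG libraries, a log2 fold change of 0.14 (adjusted p = 0.33). The 3 tested Argonaute genes had log2 fold changes from 0.11 to 0.12. Eif2c2 (Ago2, the slicing Argonaute), with the smallest p of them, was at 18.6, 19.1 and 18.9 FPKM in the vehicle libraries and 19.9, 22.6 and 19.4 FPKM in the 2DG libraries (adjusted p = 0.52). The groups of Eif1ad, Eif2c1 and Eif2c2 did not overlap, and these genes are among the 9 counted above as higher with 2DG. Over all tested loci, 11.9% were higher in this way.

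The genes that regulate these factors gave no call either. Of the 4 eIF2 kinase genes none passed; the 2 of smallest p were Eif2ak2 (PKR, the sensor of double-stranded RNA; log2 fold change 0.16, adjusted p = 0.47) and Eif2ak4 (GCN2, the sensor of amino acid lack; 0.22, adjusted p = 0.53). Of 8 genes of the eIF2α phosphatase and of helpers of the kinases none passed, with Ppp1ca (-0.19, adjusted p = 0.30) and Ppp1cc (-0.12, adjusted p = 0.49), both catalytic subunits, at the smallest p. Of 14 partners and regulators of eIF4F none passed. The 2 of smallest p were the kinases that phosphorylate eIF4E, Mknk2 and Mknk1. Mknk2 was at 88.6, 125 and 102 FPKM in the vehicle libraries and 73.3, 87.7 and 77.1 FPKM in the 2DG libraries (log2 fold change -0.39 ± 0.14 SE, adjusted p = 0.20). Its groups did not overlap, nor did those of Ppp1ca and Ppp1cc. Mknk1 had a log2 fold change of -0.35 (adjusted p = 0.21), with groups that overlapped. Groups did not overlap for 21.4% of the 14 eIF4F genes and 25% of the 8 phosphatase and helper genes, against 23.7% of all tested loci.

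Of 10 other tested helpers of initiation none passed, with Ddx3y (above) and the scanning helicase gene Dhx29 (-0.21, adjusted p = 0.19) at the smallest p. Of 7 tested genes with an elongation factor name, which alone does not show a role in elongation, none passed. Eef1b2, for an exchange factor subunit of eEF1A, differed by 0.22 (adjusted p = 0.31) and Eef1e1 by 0.14 (adjusted p = 0.43). Neither of the 2 tested release factor genes, Gspt1 (0.08, adjusted p = 0.63) and Etf1 (0.02, adjusted p = 0.96), passed. The same held for both mitochondrial initiation factor genes, Mtif2 (-0.10, adjusted p = 0.61) and Mtif3 (-0.04, adjusted p = 0.91). Groups did not overlap for 30% of the 10 helpers, Ddx3y and Dhx29 among them. The same was true of 14.3% of the 7 genes with an elongation factor name, namely Eef1b2. Over all tested loci the share was 23.7%. The medians of the log2 fold changes of these 7 lists lay between -0.07 and 0.10.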

How the data were processed

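RNA of 3 vehicle and 3 2DG libraries of mouse Th17 cultures was analysed from 1 table. Its values are FPKM as the authors deposited them, 1 for each library at each locus. Tools credited to the submitters' processing notes are Cuffdiff 2.2.1.3, Cuffnorm 2.2.1.1, Cufflinks 2.2.1.0 and TopHat2 2.1.0, with the build mm10. For annotation, strand use and scaling, the sources used here give nothing. FPKM are estimates, so no count test was made and depth is unknown.

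The test used limma 3.58.1 (R 4.3.3) on log2(FPKM + 1) and covered the 10228 loci whose mean reached 1 FPKM, with group as the only term, eBayes with a trend, two-sided p-values and Benjamini-Hochberg adjustment over all of them. The pseudocount of 1 understates changes of low genes. The code was tested on simulated data. The members, lists and tests were chosen with earlier results of these data known. Named genes are those with the smallest p of each complex and a set of core subunits, plus the 2 of smallest p in each companion list. Eif2b1, Eif2b3, Eif2b4, Eif2a, Eif1ax, Eif1b, Eif3d, Eif3e, Eif3l, Eif4a2, Eif4g2, Eif4h, Eif5a2, Eif5b and the Y-linked genes other than Eif2s3y were named after their values were seen. Coordinates and promoters are RefSeq's on GRCm38.p6; all 53 symbols matched a RefSeq gene. Python 3.11.15 and matplotlib 3.10.9 made the figures. Alternatives covered the pseudocount, the filter, the scaling, the variance model, the replicate number as a block and each library left out.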

Additional observations from a re-analysis of the deposited data

How the results depend on the processing

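None of the 51 tested members was called, in either direction, by limma at an adjusted p under 0.05 with any of the 18 alternatives, against 5 and 3 at an unadjusted p under 0.05. Those 5 and 3 were 0 and 0 with an equal sum of FPKM, 2 and 2 with eBayes without trend and with replicates 2 and 3 only, and 1 to 3 and 1 to 3 with 1 library left out. The lowest adjusted p for Eif2b2 was 0.082 (equal upper quartile), and for Eif4b 0.09 (quantile normalization). Over all loci, 156 and 122 calls as higher and lower became 100 and 65 with no filter on low values, 95 and 62 with an equal sum, 57 and 44 with the replicate block, 247 and 199 with robust eBayes, 262 and 214 without small RNA genes, and 43 and 28 with replicates 2 and 3 only. Leaving out 1 library gave 52 to 98 and 25 to 69. The labels do not say whether the replicate numbers pair the libraries. Deviations from the group means correlated at -0.05, 0.19 and -0.11 for same-numbered libraries. Differently numbered libraries across the groups correlated at -0.17 to 0.22. With 3 libraries a group these values cannot decide whether the libraries are paired, and the main fit used no block.

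By replicate number, some median log2 fold changes lay at least 1 within-group SD of the library medians from the main value. They were -0.23 for eIF2B in number 2, 0.073 for eIF4 in number 1 and 0.071 for all members in number 3. For eIF3 they were -0.086 in number 1 and 0.14 in number 3. The other numbers gave -0.048 and 0.063 for eIF2B, 0.061 for eIF3, and -0.078 and 0.051 for eIF4. No value for eIF2 or eIF5 lay so far out. These differences take same-numbered libraries as pairs, which the labels do not settle. The cause of the shifts was not tested. Eif6 was reversed to 0.0073 by quantile normalization; for the 25 named members, 18 further sign changes were smaller than 1 within-group SD. The number of members with an interval within 1.5-fold ran from 37 (equal sum) to 50. Eif4ebp3 was not tested at a minimum mean of 5 FPKM. Unknown depth limits what the low genes can show.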
